A study of Mus musculus with 11 samples.

Results

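The collagen family was measured in livers of newborn mice in which Notch signalling had been switched on in hepatoblasts and their descendants. Members were all probes of an Agilent whole mouse genome array whose gene name is Col, a number, the letter a and a number, which gave 80 of 41174 probes, for 40 genes. At least 1 probe was above background for 37 of these genes (55 probes), meaning that in 1 group or more the scanner software marked its spot as well above background on all arrays, and these 37 were among 15734 genes tested. Col10a1, Col19a1 and Col28a1 were above background on no array and were not tested. Col26a1, Col6a4 and Col6a6 are collagens that the array lists under other names, and they stand outside the family as counted here. By class, 11 of the 37 tested genes encode fibrillar collagens, 8 encode collagens of the basement membrane and 18 encode other collagens, among them 8 fibril-associated, 4 membrane-spanning, 3 beaded filament (type VI) and 3 network or anchoring chains.

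Collagens are secreted proteins of 3 chains wound into a triple helix. Fibrillar collagens such as types I and III form the banded fibrils of connective tissue, type IV collagen forms the meshwork of basement membranes, types XV and XVIII lie where both meet, and fibril-associated collagens such as types IX, XII, XIV and XVI sit on or beside fibrils. In the liver, fibrillar collagen comes mainly from stellate cells, portal fibroblasts and other mesenchymal cells. Bile ducts and vessels rest on basement membranes, which hepatocytes largely lack. Notch is a receptor whose intracellular domain, NICD, enters the nucleus after cleavage and binds the DNA-binding protein RBPJ, and Notch signalling directs hepatoblasts toward bile duct cells.

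The study compared 4 groups of whole-liver RNA, all from pups of a hybrid 129 x C57BL/6 background that carry Rosa26-lsl-NICD, an allele that makes NICD once Cre has removed a stop cassette. Mutants, called Double transgenic AFP-Cre/Rosa26-lsl-NICD in the labels, also carried Cre under the alpha-fetoprotein promoter, which is active in hepatoblasts. Controls, called Mono transgenic Rosa26-lsl-NICD, carried no Cre. There were 3 mutants and 3 controls of day 2, and 3 mutants and 2 controls of day 0, the day of birth. Since no pups had Cre without NICD, their effects cannot be told apart. Since RNA came from whole liver, fewer cells of a type and less RNA per cell cannot be told apart either.

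Each value below is the log2 signal of a gene's probe minus that array's 75th percentile, so 0 is a fairly bright probe and a difference of 1 is a 2-fold one. These levels compare arrays, not genes. The 75th percentile itself ran from 607.72 to 1301.55 between arrays, and 63.3% to 68.6% of spots were well above background. None of the 80 collagen probes was saturated on any array. Mutant day 0 replicate 3 stood apart from its group, with correlations across genes of 0.952 and 0.954 with the other day 0 mutants, where every other pair of arrays within a group correlated at 0.983 or more. It was the highest of the 3 day 0 mutants for 23 of 37 collagens (38.1% of all genes), and results that rest on it are given with and without it. Pup sex is not in the labels and was inferred from the arrays, from the signal of Xist against that of genes on the Y chromosome. By this reading sex and genotype coincided at day 0, with 3 females among the mutants and 2 males among the controls. Each day 2 group held 1 male and 2 females. Groups also kept 1 position each on all slides, which therefore cannot be told apart from genotype and day. P-values measure the spread between these arrays, whose separate pups are known only from their labels. As a check of the tissue, 5 hepatocyte markers (Alb, Ttr, Tat, Cps1 and Hnf4a) averaged 4.17 to 4.69 in day 2 mutants, 5.25 to 5.45 in day 2 controls, 3.86 to 4.02 in day 0 mutants and 4.92 to 5.02 in day 0 controls.

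The first comparison asked which collagens differ between mutant and control livers. Over both days, with equal weight to each, 6 of 37 collagens rose in mutants and 1 fell at an adjusted p under 0.05 (limma, adjusted over all 15734 genes), against 8.89% of all genes that rose and 7.06% that fell (15.9% either way). The risers were Col9a1, Col9a3, Col16a1 and Col23a1 among the other collagens, and Col4a1 and Col4a5 of the basement membrane, and Col27a1 fell. At day 2, 8 rose and 1 fell, against 9.77% and 6.66% of all genes (16.4% either way). As shares of the 37 tested collagens the day 2 counts are 21.6% higher and 2.70% lower. Col9a1 and Col23a1 were above background on all arrays of the mutant groups alone, and entered the test only through those groups. With only probes above background on every array kept, they and Col4a5 were not tested, and 6 of the 9 day 2 calls remained. Col4a2 was added there (17.7% of all genes called). At day 0 only Col27a1 passed, against 1.63% of all genes that rose and 0.718% that fell (2.35% either way). An unadjusted p under 0.05 was reached at day 0 by 4 of 37 collagens, against 2376 of 15734 genes. By class, the fibrillar collagens had 1 riser and 1 faller among 11 at day 2, the basement membrane collagens 2 risers among 8, and the other collagens 5 risers among 18. The plot of differences by gene shows that the passing genes are spread over the 3 classes and that most of each class did not pass.

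**Figure D1:**
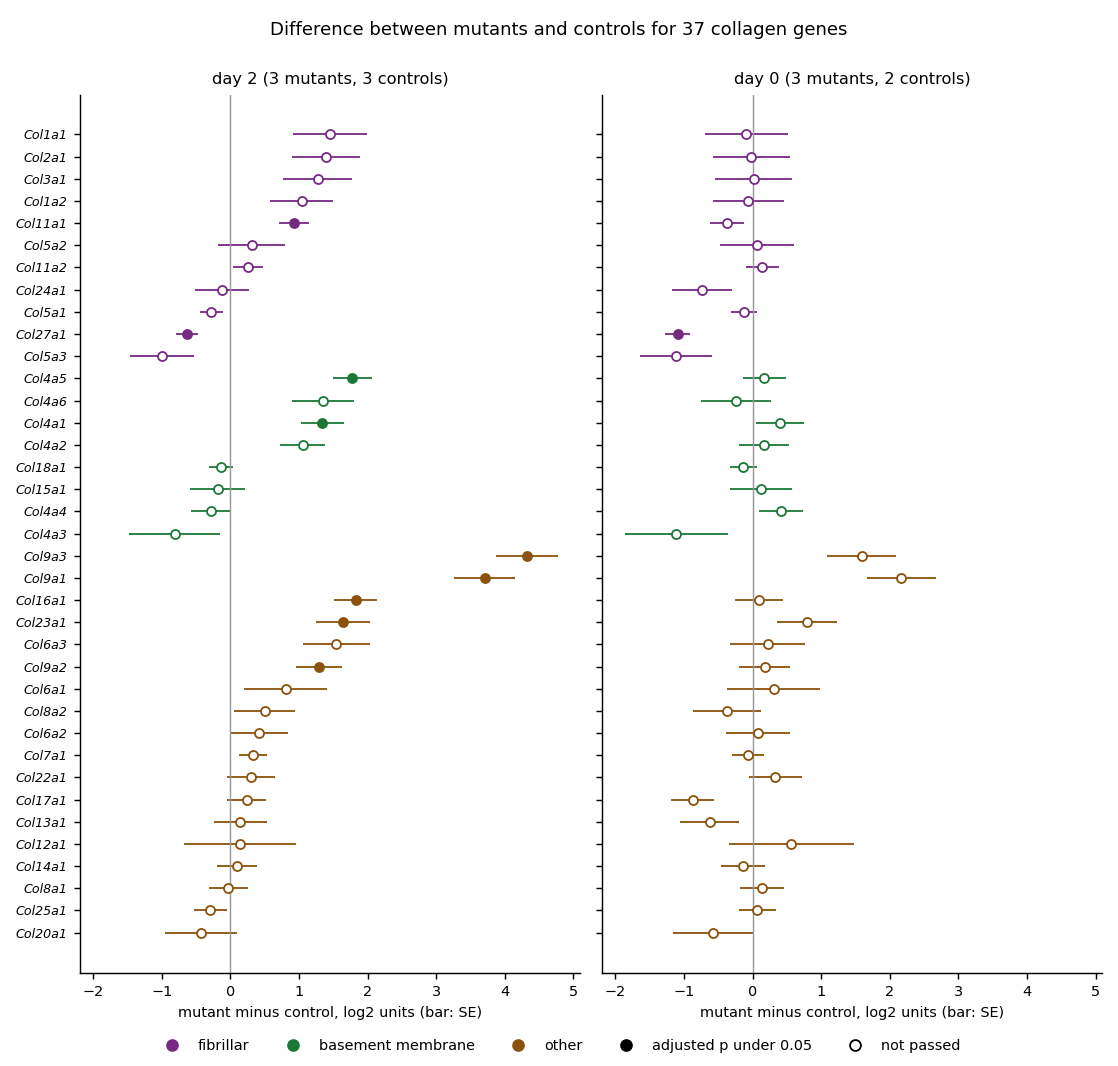
Mutant minus control difference (log2 units, x axis) of each of 37 collagen genes (y axis) at day 2 (left) and day 0 (right), with bars of 1 standard error from limma, and filled points for an adjusted p under 0.05. At day 2, Col9a3 and Col9a1 lie farthest to the right at 4.32 and 3.70 (a fitted value against controls below background for Col9a1), and at day 0 only Col27a1 at -1.09 is filled.

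These counts depended on single arrays. Without mutant day 0 replicate 3, 15 collagens rose and 1 fell at day 2 (40.5% and 2.70% of the family), against 15% and 15.2% of all genes. The 7 additions were Col1a1, Col1a2, Col2a1, Col3a1, Col4a2, Col4a6 and Col6a3, all with unchanged day 2 differences, since that array enters the day 2 comparison only through the spread. The day 2 count was 5 without mutant day 2 replicate 1 (10.5% of all genes called) and 4 without mutant day 2 replicate 3 (10.8% of all genes, the same share as 4 of 37). Over both days it was 8 without mutant day 0 replicate 3 (13.2% of all genes higher and 12.8% lower, 26% either way) and 3 without either day 0 control (8.76% and 8.43% of all genes called). At day 0 it was 2 without mutant day 0 replicate 3 (5.73% of all genes called), with Col9a1 added, and 0 without either day 0 control (0.572% and 0.375% of all genes called).

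Type IX collagen, a fibril-associated molecule known mainly from cartilage, whose 3 chains are encoded by Col9a1, Col9a2 and Col9a3, had higher values in day 2 mutants for all 3 genes. The day 2 differences of Col9a3 and Col9a1 were the largest fitted in the family, and that of Col9a2 was smaller than those of several other collagens. Promoter sequence is shown for the 3 called members whose first 250 bases before the transcription start hold the core of the RBPJ motif, TGGGAA on either strand, because RBPJ is the protein through which NICD acts on DNA. The sequences run 5′ to 3′ along the gene's strand, are RefSeq's for build GRCm38.p6, and show the motif in capitals, as TTCCCA where it lies on the other strand. It starts 53, 85 and 81 bases before the start of Col9a1 (chr1:24177360-24177609, plus strand), Col9a2 (chr4:121039316-121039565, plus strand) and Col4a5 (chrX:141475169-141475418, plus strand). Col9a1 has another listed start, whose window does not hold the motif and is not shown.
Col9a1: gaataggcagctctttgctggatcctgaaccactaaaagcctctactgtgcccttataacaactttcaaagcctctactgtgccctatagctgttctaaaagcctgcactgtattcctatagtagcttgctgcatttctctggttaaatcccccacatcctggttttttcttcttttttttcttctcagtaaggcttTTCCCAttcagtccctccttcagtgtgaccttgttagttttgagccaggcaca
Col9a2: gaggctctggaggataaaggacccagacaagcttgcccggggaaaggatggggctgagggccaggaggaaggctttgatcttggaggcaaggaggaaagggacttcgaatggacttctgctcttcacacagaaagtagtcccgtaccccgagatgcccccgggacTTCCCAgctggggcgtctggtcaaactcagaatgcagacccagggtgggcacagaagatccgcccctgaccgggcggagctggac
Col4a5: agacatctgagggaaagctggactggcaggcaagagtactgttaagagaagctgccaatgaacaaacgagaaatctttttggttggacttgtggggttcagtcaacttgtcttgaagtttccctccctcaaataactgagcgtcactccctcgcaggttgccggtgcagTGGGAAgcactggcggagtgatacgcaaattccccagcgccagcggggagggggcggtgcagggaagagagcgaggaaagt
A promoter was listed for 29 of the 37 tested members, and 8 of these 29 (27.6%) held the motif, against 24.1% of 27025 genes with a promoter and 21.6% of 32851 promoters. Of the 9 members called in any comparison of the genotypes, 8 had a listed promoter and 3 of them held the motif, while 5 of 21 members that were not called did. Such a match is a description of the letters and shows no binding, and no promoter of Col9a3 was listed.

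Col9a3 (probe on chromosome 2, 180545256 to 180545838, build mm8 as for all probes) measured -0.53, -1.48 and -0.88 in day 2 mutants, against -4.81, -5.06 and -5.98 in day 2 controls. In day 0 livers it measured -3.16, -4.41 and -2.78 in mutants, against -5.10 and -4.99 in controls. All mutant arrays lay above all control arrays of their day, and the day 2 mutants lay above every other array. The difference was 4.32 ± 0.45 at day 2 (SE, 20.0-fold, limma, adjusted p = 0.000291), 1.59 ± 0.50 at day 0 (adjusted p = 0.16) and 2.96 ± 0.34 over both days (adjusted p = 0.000462). Within the mutants it rose by 2.49 ± 0.45 between day 0 and day 2 (SE, 5.61-fold, adjusted p = 0.00748), and without mutant day 0 replicate 3 by 2.82 (adjusted p = 0.0055). The day 2 difference exceeded the day 0 one by 2.73 ± 0.67, which did not pass (adjusted p = 0.141, and 0.0584 without that replicate). The result over both days, the day 2 result and the change within mutants passed in all 20 other settings run, although normexp background treatment, which pulls dim signals together, gave 2.64 at day 2, 1.69 over both days and 1.75 within the mutants.

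Col9a1 (chromosome 1, 24206120 to 24206179) was above background on all 6 mutant arrays and on none of the 5 control arrays. It measured -3.38, -3.28 and -3.63 in day 2 mutants, against -7.34, -7.61 and -6.46 in day 2 controls. At day 0 the mutants had -3.80, -3.99 and -5.57 and the controls -6.61 and -6.65, again without overlap, the lowest mutant being replicate 3. Its fitted difference was 3.70 at day 2 (limma, adjusted p = 0.000705). At day 0 it was 2.17 (adjusted p = 0.0598), and 2.73 without mutant day 0 replicate 3 (adjusted p = 0.00376). With each control given at least the level of the dimmest probe above background on its array, Col9a1 was 6.00-fold higher in day 2 mutants. On the same footing it was 2.97-fold higher in day 0 mutants. These folds depend on that level and are not strict lower limits. It passed at day 2 and over both days (adjusted p = 0.000475) in all 19 other settings that kept it, although its difference was then as small as 0.89 at day 2 and 0.76 over both days, both under normexp treatment.

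Col9a2 (chromosome 4, 120552728 to 120552787) measured -1.11, -1.35 and -1.36 in day 2 mutants, against -2.35, -2.18 and -3.17 in day 2 controls. At day 0 the mutants had -1.71, -2.07 and -1.05 and the controls -2.17 and -1.40. The genotypes were separate at day 2 and overlapped at day 0. It rose by 1.29 ± 0.33 at day 2 (SE, 2.45-fold, adjusted p = 0.0289), and did not pass with slide as a block (adjusted p = 0.0562) or without any of mutant day 2 replicates 1 to 3 or control day 2 replicates 1 and 3 (adjusted p = 0.06 to 0.0917). Among cartilage and bone markers, Matn1 and Ibsp were above background on no array, Bglap on 1, and Acan and Comp, the other 2, differed between mutants and controls at day 2 by a median of -0.60 without either passing. When mutant day 0 replicate 3 was left out, Comp fell in mutants at day 2 (-0.70, adjusted p = 0.0216), at day 0 (-1.02, adjusted p = 0.0361) and over both days (-0.86, adjusted p = 0.00369).

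**Figure D2:**
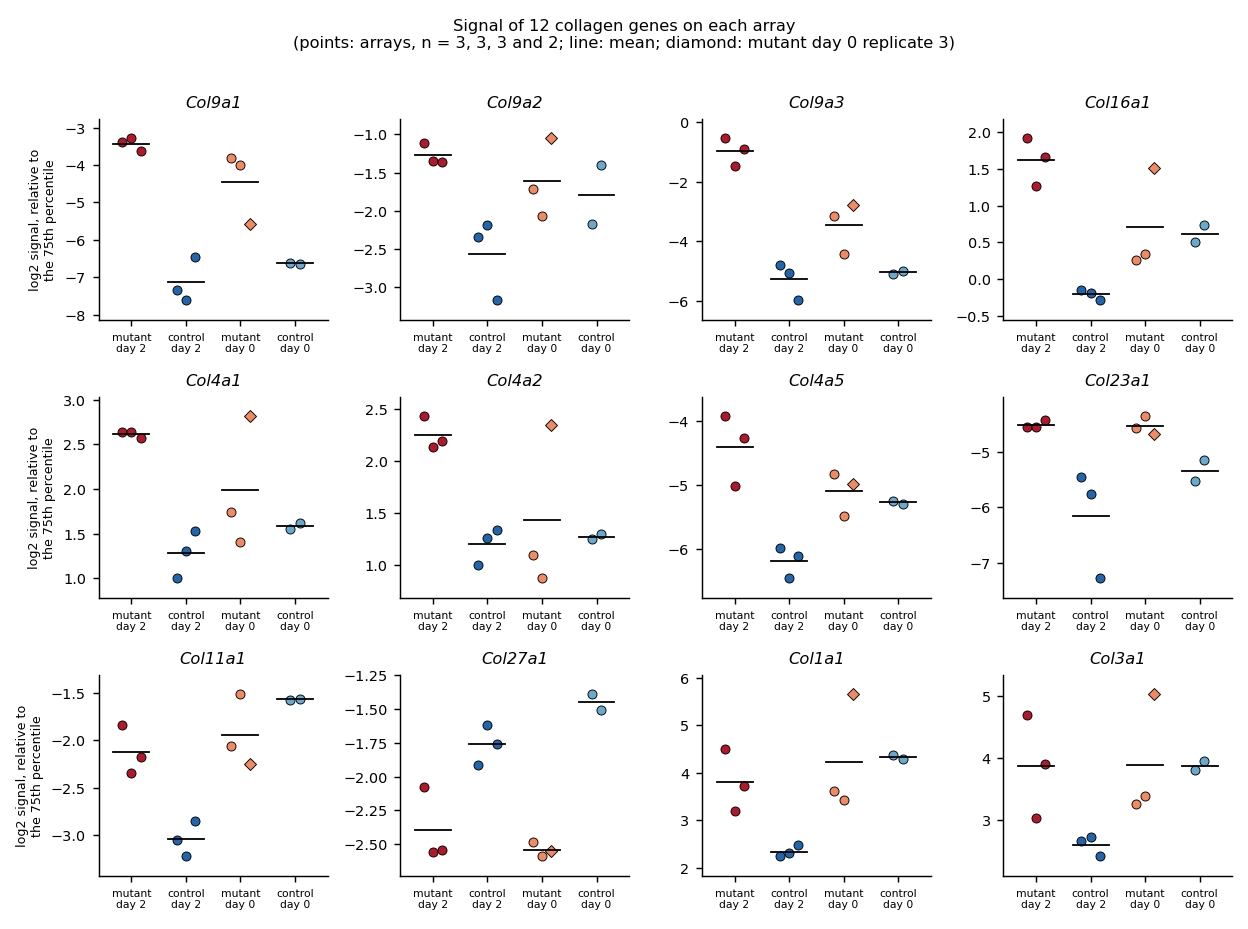
Log2 signal relative to the 75th percentile (y axis, a separate scale in each panel) of 12 collagen genes on each array, by group (x axis: mutant and control of day 2, then mutant and control of day 0), with a line at each group mean and a diamond for mutant day 0 replicate 3. Day 2 mutants lie clear of day 2 controls in all 12 panels, below them for Col27a1 and above them for the others, and the diamond is the highest day 0 mutant for Col9a2, Col9a3, Col16a1, Col4a1, Col4a2, Col1a1 and Col3a1.

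Col16a1 encodes another fibril-associated collagen, found in several connective tissues (chromosome 4, 129601405 to 129601464). It measured 1.92, 1.27 and 1.66 in day 2 mutants, against -0.15, -0.19 and -0.29 in day 2 controls. Day 0 mutants had 0.26, 0.34 and 1.52 and day 0 controls 0.50 and 0.74. At day 2 the genotypes were well apart, and at day 0 mutant replicates 1 and 2 lay below both controls and replicate 3 above them. Col16a1 rose by 1.83 ± 0.31 at day 2 (SE, 3.54-fold, adjusted p = 0.00469), in all 20 other settings as well, and differed by 0.09 at day 0 (adjusted p = 0.931). The difference between the days was 1.74 ± 0.47 (adjusted p = 0.168) with all arrays and 2.14 (adjusted p = 0.0156) without mutant day 0 replicate 3. Over both days it rose by 0.96 ± 0.24 (adjusted p = 0.0239), a call lost without mutant day 2 replicate 1 or 3, control day 2 replicate 2 or either day 0 control and with pup sex as a covariate (adjusted p = 0.0516 to 0.0958).

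Col23a1, which encodes a membrane-spanning collagen (chromosome 11, 51426806 to 51426865), was above background on all 6 mutant arrays and on 1 control array of each day. It measured -4.56, -4.56 and -4.43 in day 2 mutants, against -5.46, -5.75 and -7.27 in day 2 controls. In day 0 livers it measured -4.58, -4.36 and -4.69 in mutants and -5.53 and -5.15 in controls. The mutants differed little among themselves, and no control reached them on either day. It rose by 1.64 ± 0.39 at day 2 (SE, adjusted p = 0.0212) and by 1.22 ± 0.29 over both days (adjusted p = 0.022), and a second probe pointed the same way. The day 2 call was lost under normexp treatment (0.16, adjusted p = 0.575) and without any 1 of the day 2 mutants (adjusted p = 0.0587 to 0.0648). The call over both days was lost under normexp treatment (0.20, adjusted p = 0.371), with pup sex as a covariate (adjusted p = 0.144) and without either day 0 control (adjusted p = 0.0928 and 0.0588).

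The remaining other collagens passed in no comparison of the genotypes. The day 2 differences of the type VI chains Col6a1, Col6a2 and Col6a3, which form beaded filaments, were 0.81, 0.42 and 1.54. Of these Col6a3 came nearest to the threshold (adjusted p = 0.0616, and 0.0105 without mutant day 0 replicate 3). The fibril-associated Col12a1, Col14a1, Col20a1 and Col22a1, the membrane-spanning Col13a1, Col17a1 and Col25a1, and the network or anchoring Col7a1, Col8a1 and Col8a2 had day 2 differences from -0.43 to 0.50.

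Among basement membrane collagens, the widely used type IV chains of Col4a1 and Col4a2 are encoded head to head on chromosome 8, with starts 21 bases apart in GRCm38.p6, and both had higher values in day 2 mutants. Col4a1 (11198981 to 11199040) measured 2.64, 2.64 and 2.58 in day 2 mutants, against 1.00, 1.31 and 1.53 in day 2 controls. At day 0 the mutants had 1.74, 1.40 and 2.81 and the controls 1.55 and 1.62. Day 2 mutants were nearly identical and stood above all day 2 controls, while at day 0 replicate 3 alone stood far above the controls. Col4a1 rose by 1.33 ± 0.31 at day 2 (SE, 2.52-fold, adjusted p = 0.0195) and by 0.87 ± 0.24 over both days (adjusted p = 0.0348). At day 0 it differed by 0.40 (adjusted p = 0.629), and by -0.01 without mutant day 0 replicate 3. Its day 2 call was lost without any 1 of the day 2 mutants or without control day 2 replicate 1 or 2 (adjusted p = 0.0536 to 0.0753), and without mutant day 0 replicate 3 its adjusted p was 0.000545. The call over both days was lost without any of the same 5 arrays, without either day 0 control, with pup sex as a covariate and with no filter on dim probes (adjusted p = 0.0525 to 0.114).

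Col4a2 (11448812 to 11448871) measured 2.43, 2.13 and 2.19 in day 2 mutants, against 1.00, 1.26 and 1.34 in day 2 controls. At day 0 the mutants had 1.09, 0.87 and 2.35 and the controls 1.25 and 1.30. It showed the pattern of its partner, with separate groups at day 2 and a day 0 replicate 3 above the rest of its group. Its day 2 difference of 1.05 ± 0.33 (SE) did not pass with all arrays (adjusted p = 0.0578) and passed without mutant day 0 replicate 3 (adjusted p = 0.000965). The difference between the days passed without that replicate for both genes, at 1.35 for Col4a1 (adjusted p = 0.038) and 1.34 for Col4a2 (adjusted p = 0.029), and for neither with it (0.94 and 0.89, adjusted p = 0.398 and 0.444).

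Col4a5 and Col4a6 encode chains of a second kind of type IV network and lie head to head on the X chromosome, with starts 1343 bases apart. Col4a5 (136934820 to 136934879), whose promoter is printed above, measured -3.93, -5.02 and -4.27 in day 2 mutants and -5.99, -6.46 and -6.11 in day 2 controls, none of which was above background. At day 0 it measured -4.83, -5.49 and -4.98 in mutants and -5.25 and -5.29 in controls. The day 2 groups were apart and the day 0 groups overlapped. Its fitted difference was 1.78 at day 2 (limma, adjusted p = 0.00324). With the day 2 controls given at least the dimmest level above background it was 2.96-fold higher in mutants, which is not a strict lower limit. It passed over both days as well (adjusted p = 0.0142), and under normexp treatment neither call held (0.28 and 0.18, adjusted p = 0.23 and 0.333). The call over both days was also lost in the authors' deposited table of log2 values (0.42, adjusted p = 0.102) and without either day 0 control (adjusted p = 0.0543 and 0.0589). Col4a6 (136411815 to 136411874) measured -3.75, -4.87 and -4.32 in day 2 mutants, against -5.10, -6.52 and -5.36 in day 2 controls. Day 0 mutants had -4.62, -3.80 and -3.31 and day 0 controls -3.86 and -3.48. Its day 2 difference of 1.35 ± 0.45 (SE) did not pass (adjusted p = 0.0728, and 0.0451 without mutant day 0 replicate 3), and another probe of Col4a6, read on 9 arrays, differed by -2.01 (adjusted p over probes = 0.414).

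The other 4 basement membrane collagens did not pass in any comparison of the genotypes. Col4a4, a chain of the kidney type of network (chromosome 1, 82331868 to 82331929), measured -0.15, 0.21 and -0.43 in day 2 mutants, 0.81, -0.16 and -0.15 in day 2 controls, 0.99, 0.85 and 1.31 in day 0 mutants and 0.49 and 0.78 in day 0 controls. Its partner Col4a3 was above background on no day 2 array. Col15a1, which encodes a collagen of vessel and muscle basement membranes, differed by -0.03 ± 0.30 over both days (SE, adjusted p = 0.959), with -4.96, -5.40 and -4.93 in day 2 mutants, -4.96, -4.68 and -5.08 in day 2 controls, -6.14, -5.54 and -4.22 in day 0 mutants and -5.49 and -5.37 in day 0 controls. Col18a1, whose protein yields endostatin and which hepatocytes themselves express, differed by -0.14 ± 0.13 (SE, adjusted p = 0.541). Its arrays read 6.31, 6.19 and 6.38 in day 2 mutants, 6.66, 6.55 and 6.07 in day 2 controls, 6.49, 6.30 and 6.62 in day 0 mutants and 6.55 and 6.65 in day 0 controls, with overlap on both days.

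Among fibrillar collagens, Col27a1 was the only member of the family called lower in mutants, on both days. Col27a1, best known from cartilage (chromosome 4, 62820812 to 62820871), measured -2.07, -2.56 and -2.55 in day 2 mutants, against -1.91, -1.62 and -1.76 in day 2 controls. In day 0 livers it measured -2.48, -2.59 and -2.55 in mutants, against -1.39 and -1.50 in controls. All 6 mutants lay below all 5 controls, and replicate 3 of the day 0 mutants lay with the others. It fell by 0.86 ± 0.12 over both days (SE, 1.82-fold lower, adjusted p = 0.00145), by 1.09 ± 0.18 at day 0 (adjusted p = 0.0157) and by 0.63 ± 0.16 at day 2 (adjusted p = 0.0266). Over both days it passed in all 20 other settings. The day 0 call was lost without either day 0 control (adjusted p = 0.128 and 0.117) and with pup sex as a covariate (adjusted p = 0.319), and the day 2 call without mutant day 2 replicate 2 or 3 or control day 2 replicate 2 or 3 (adjusted p = 0.0597 to 0.1) and with the mean of its probes (adjusted p = 0.056). A second probe was also lower in mutants over both days (-0.74, adjusted p over probes = 0.017), and did not pass at day 2 (-0.47, adjusted p over probes = 0.198) or at day 0 (-1.01, adjusted p over probes = 0.0849).

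Col11a1, a chain of type XI collagen, which lies inside cartilage fibrils and occurs in other tissues (chromosome 3, 114211238 to 114211297), measured -1.83, -2.35 and -2.17 in day 2 mutants, against -3.05, -3.22 and -2.85 in day 2 controls. At day 0 it measured -2.06, -1.51 and -2.25 in mutants and -1.58 and -1.56 in controls. Day 2 controls were the lowest group, apart from all other arrays. It rose in mutants by 0.92 ± 0.22 at day 2 (SE, 1.90-fold, adjusted p = 0.019), and this was lost without mutant day 2 replicate 1 or 3 or control day 2 replicate 1 or 2 (adjusted p = 0.0507 to 0.0713). The day 0 difference was -0.37 (adjusted p = 0.509).

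The major fibrillar collagens of liver connective tissue, types I and III, did not pass with all arrays. Col1a1 (chromosome 11, 94767851 to 94767910) measured 4.49, 3.19 and 3.72 in day 2 mutants, against 2.25, 2.31 and 2.47 in day 2 controls. Day 0 mutants had 3.61, 3.43 and 5.65 and day 0 controls 4.36 and 4.28. Every day 2 mutant lay above every day 2 control, and at day 0 replicate 3 lay above the controls and the other mutants below them. The day 2 difference was 1.46 ± 0.54 (SE, 2.74-fold, adjusted p = 0.098), and with the same difference it passed without mutant day 0 replicate 3 (adjusted p = 0.00643). The day 0 difference was -0.09 with that replicate and -0.80 without it (adjusted p = 0.961 and 0.245).

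Col1a2, the partner chain of type I, measured 4.16, 2.92 and 3.37 in day 2 mutants, against 2.73, 2.16 and 2.44 in day 2 controls. At day 0 it measured 3.18, 3.20 and 4.85 in mutants and 3.93 and 3.68 in controls. Col3a1, the chain of type III, measured 4.69, 3.03 and 3.90 in day 2 mutants, against 2.66, 2.72 and 2.41 in day 2 controls, and 3.25, 3.39 and 5.03 in day 0 mutants, against 3.81 and 3.94 in day 0 controls. In both genes the day 2 groups were apart and the day 0 controls lay between replicate 3 and the other mutants. Their day 2 differences were 1.04 ± 0.46 for Col1a2 and 1.27 ± 0.50 for Col3a1 (SE, adjusted p = 0.159 and 0.118), and 0.0295 and 0.0271 were the adjusted p without mutant day 0 replicate 3. Col2a1, the cartilage fibril chain, had 1.39 at day 2 (adjusted p = 0.0898, and 0.0286 without that replicate). Of the rest, Col5a3 had -1.06 over both days (adjusted p = 0.0725), and Col5a1, Col5a2, Col11a2 and Col24a1 had -0.28 to 0.31 at day 2.

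The 3 classes are described by their medians, without a test. The median day 2 difference was 0.31 over 11 fibrillar, 0.46 over 8 basement membrane and 0.38 over 18 other collagens, against -0.09 over all genes. Under normexp treatment these medians were 0.28 fibrillar, 0.02 basement membrane and 0.16 other, and the basement membrane median was -0.14 when only probes above background on every array were kept. At day 0 the medians were -0.09 fibrillar, 0.14 basement membrane and 0.11 other, against -0.01 over all genes. Every class was negative at day 0 without mutant day 0 replicate 3, at -0.55 fibrillar, -0.25 basement membrane and -0.24 other, where 8 of 37 collagens were positive, against 20 of 37 with it. Within slides, day 2 medians were positive on all 3 slides (0.76, 0.31 and 0.55 fibrillar, 0.68, 0.62 and 0.58 basement membrane, 0.69, 0.07 and 0.62 other), and day 0 medians were negative on both slides that hold all groups (-0.56 and -0.48 fibrillar, -0.11 and -0.21 basement membrane, -0.19 and -0.17 other). Slide 3, which holds replicate 3, has no day 0 control. At day 2, 16 collagens had every mutant above every control, against 20.9% of all genes, and 1 had every mutant below, against 24.6%. At day 0 there were 4 of each, against 16.6% and 15.1%.

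**Figure D3:**
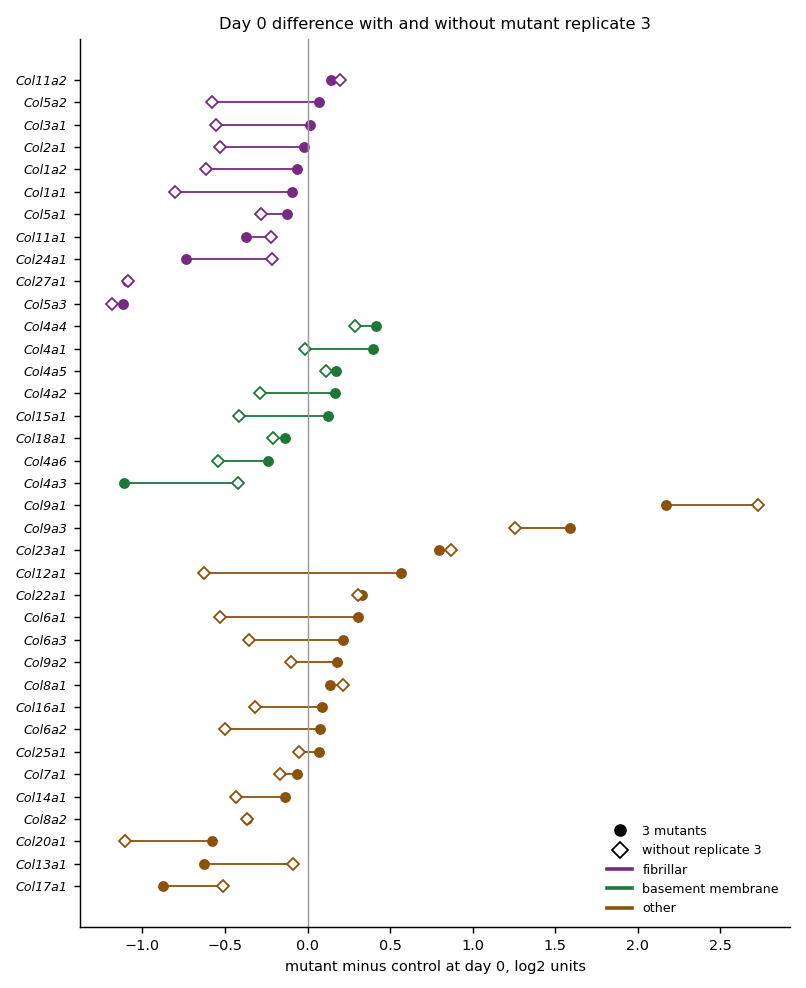
Mutant minus control difference at day 0 (log2 units, x axis) of 37 collagen genes (y axis, by class) with all 3 mutants (filled circle) and without mutant replicate 3 (open diamond), joined by a line. Most lines run to the left, and 8 diamonds lie above 0, against 20 circles.

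The difference between the day 2 and day 0 genotype effects passed for 0 of 37 collagens with limma, against 0.273% of all genes called. At an unadjusted p under 0.05 were 7 of the 37, against 2297 of 15734 genes. Without mutant day 0 replicate 3 the difference between the days passed for 4, all higher at day 2 (1.52% of all genes called higher). They were Col16a1, Col1a1, Col4a1 and Col4a2, with Col1a1 at 2.26 (adjusted p = 0.0493).

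The second comparison asked how collagens change over the first days after birth in each genotype. In controls, 3 of 37 collagens were lower at day 2 than at day 0 and none was higher, against 5.78% of all genes lower and 5.54% higher (11.3% either way). In mutants, 1 rose and 1 fell, against 9.44% and 11.2% (20.6% either way). The median day 2 minus day 0 difference was -0.10 in mutants and -0.75 in controls over the 37 collagens, against 0.00 in mutants and -0.02 in controls over all genes, and 20 of the 37 were negative in mutants and 32 in controls. By class it was -0.10 in mutants and -0.86 in controls for fibrillar, 0.02 in mutants and -0.39 in controls for basement membrane, and -0.09 in mutants and -0.77 in controls for other collagens. The control medians kept their sign in every setting run. Their size did not hold. Under normexp treatment the median over the 37 collagens was -0.36 in controls and -0.22 in mutants, against -0.03 and -0.07 over all genes. The mutant class medians changed sign between settings, running from -0.32 to 0.23 for fibrillar, from -0.22 to 0.32 for basement membrane and from -0.50 to 0.11 for other collagens. The mutant median without mutant day 0 replicate 3 was 0.14 over the 37 collagens, 0.23 for fibrillar, 0.32 for basement membrane and -0.06 for other collagens. Within slides 1 and 2, control medians ran from -1.03 to -0.40, and mutant medians on slides 1, 2 and 3 were 0.83, -0.25 and -0.46 for fibrillar collagens.

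**Figure D4:**
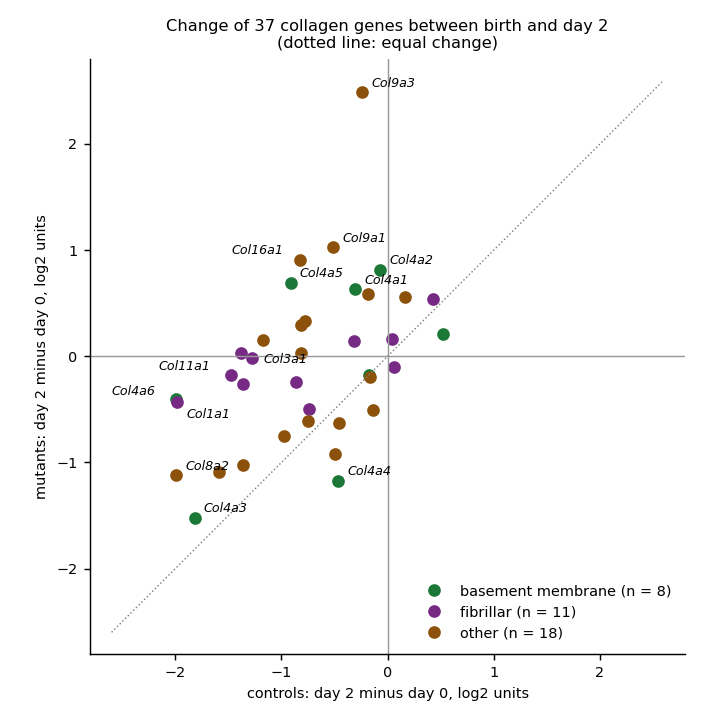
Day 2 minus day 0 difference (log2 units) of 37 collagen genes in mutants (y axis) and in controls (x axis), coloured by class, with a dotted line where both are equal. Most points lie left of 0, at a median of -0.75 in controls, and around 0 vertically, at a median of -0.10 in mutants, with Col9a3 highest at 2.49.

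The control fallers came from each class. Col11a1 fell by 1.48 ± 0.24 between day 0 and day 2 in controls (SE, limma, adjusted p = 0.00772), where all day 2 controls lay below both day 0 controls, and did not pass without either day 0 control (adjusted p = 0.0643 and 0.0697). Col8a2, a network-forming collagen known from the cornea, measured -3.14, -4.27 and -3.91 in day 2 controls, against -1.70 and -1.87 in day 0 controls, and -2.21, -3.72 and -3.89 in day 2 mutants, against -2.48, -1.82 and -2.16 in day 0 mutants. It fell by 1.99 ± 0.49 in controls (SE, adjusted p = 0.0346), and did not pass with slide as a block (adjusted p = 0.0548) or without control day 2 replicate 2 or 3 or either day 0 control (adjusted p = 0.0867 to 0.177). Col4a6 fell by 1.99 ± 0.51 in controls (SE, adjusted p = 0.0372), a call that held in 8 of 20 other settings and was lost, among others, without any 1 of control day 2 replicates 2 and 3, both day 0 controls, mutant day 2 replicate 3 and mutant day 0 replicate 2 (adjusted p = 0.0509 to 0.209). In 21 collagens every day 2 control lay below both day 0 controls, against 28% of all genes, and in 2 every one lay above, against 28.8%. Of these 21, 8 were fibrillar, 4 basement membrane and 9 other collagens. Col1a1 had -1.98 in controls (adjusted p = 0.063, and 0.00416 without mutant day 0 replicate 3). The control count of 3 became 15, all lower, without mutant day 0 replicate 3 (13.6% of all genes lower), 1 without control day 2 replicate 2 or 3 (3.98% and 5.77% of all genes called), and 0 without either day 0 control (1.84% and 1.45% of all genes called).

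In mutants, the collagen that rose between the days was Col9a3, given above. Col4a4 fell by 1.17 ± 0.28 (SE, adjusted p = 0.0215, and 0.0456 without mutant day 0 replicate 3), with every day 2 mutant below every day 0 mutant. Without mutant day 2 replicate 1 or 3 it did not pass (adjusted p = 0.0592 and 0.0814). In 2 collagens every day 2 mutant lay above every day 0 mutant, against 21% of all genes, and in 4 every one lay below, against 21.9%. Without mutant day 0 replicate 3 the count of 2 became 8, of which 5 rose and 3 fell, against 10.3% and 12.2% of all genes (22.4% either way), with Col4a1 at 1.05 and Col4a2 at 1.27 among the risers (adjusted p = 0.0055 and 0.00184). It was 4 without mutant day 2 replicate 2 (9.92% of all genes called) or mutant day 0 replicate 2 (17.4%), 1 without mutant day 2 replicate 3 (8.82%), and 4 with slide as a block (19.5%).

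Genes that work on collagen were taken from lists chosen with earlier results of these data known. Of 29 tested enzymes and chaperones of collagen synthesis, 7 rose in mutants over both days and 1 fell, with a median of 0.25, against 8.89% of all genes that rose and 7.06% that fell. Serpinh1, which encodes the collagen chaperone HSP47, measured 5.13, 5.10 and 5.16 in day 2 mutants, against 3.83, 3.98 and 3.57 in day 2 controls, and 5.66, 5.40 and 5.95 in day 0 mutants, against 4.79 and 4.64 in day 0 controls. Mutants were above controls throughout, and it rose by 1.14 ± 0.13 over both days (SE, adjusted p = 0.000387). Plod2, a lysyl hydroxylase that prepares collagen for stable crosslinks, rose by 2.70 ± 0.50 (SE, adjusted p = 0.00673). P3h4 and Fkbp10, which act with collagen hydroxylases in the endoplasmic reticulum, rose by 0.96 and 0.94 (adjusted p = 0.00348 and 0.0272). P4ha3, a prolyl hydroxylase subunit, passed as well (adjusted p = 0.037), with no day 2 control above background. P4ha3 entered the test only through the day 2 mutants. The procollagen protease Adamts3 fell by 0.43 (adjusted p = 0.0184). The main prolyl hydroxylase subunit P4ha1 (0.23, adjusted p = 0.811) and the crosslinking enzyme Lox (0.60, adjusted p = 0.425) did not pass. Without mutant day 0 replicate 3 the enzymes had 9 risers and 1 faller, against 13.2% and 12.8% of all genes.

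**Figure D5:**
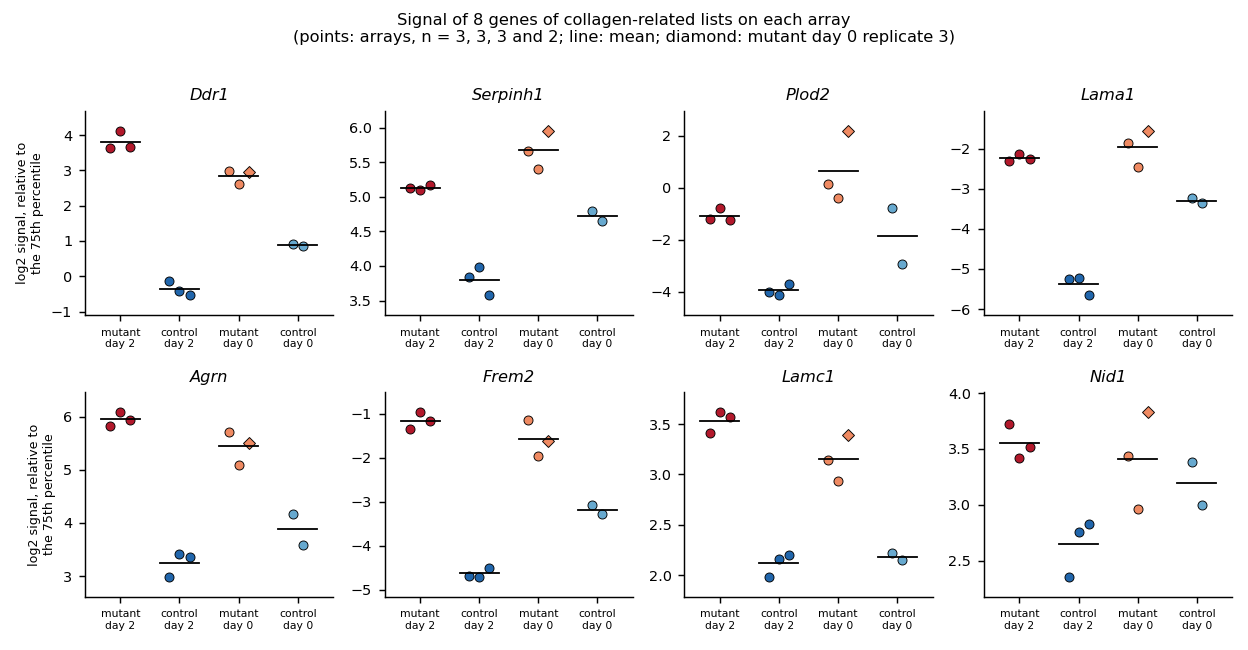
Log2 signal relative to the 75th percentile (y axis, a separate scale in each panel) of 8 genes that act on or beside collagen, on each array by group (x axis), with a line at each group mean and a diamond for mutant day 0 replicate 3. Mutants lie above the controls of their day in all panels except Nid1 at day 0, where the groups overlap.

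Of 19 tested partners of collagen in the basement membrane, 8 rose over both days and 1 fell, with a median of 0.93, against 8.89% and 7.06% of all genes. At day 2, 10 rose, with a median of 1.38, against 9.77% of all genes. Lama1, a laminin chain of early basement membranes, measured -2.31, -2.13 and -2.25 in day 2 mutants, against -5.26, -5.24 and -5.66 in day 2 controls, and -1.87, -2.45 and -1.55 in day 0 mutants, against -3.23 and -3.36 in day 0 controls. It rose by 2.25 ± 0.17 over both days (SE, adjusted p = 4.21e-05), with mutants above controls throughout. Frem2, which anchors epithelia to the matrix below, rose by 2.54 ± 0.16 (SE, adjusted p = 1.75e-05), and the proteoglycan gene Agrn by 2.13 ± 0.16 (SE, adjusted p = 4.75e-05). The laminin chains Lamc1 and Lamb2 rose by 1.20 and 1.23 (adjusted p = 0.000145 and 0.000216), and the laminin chain Lama3 fell by 0.73 (adjusted p = 0.00929). Nid1, whose protein links laminin to type IV collagen, did not pass over both days (0.56, adjusted p = 0.0595) and rose by 0.91 at day 2 (adjusted p = 0.0286). Without mutant day 0 replicate 3 the counts were 9 higher and 3 lower over both days, against 13.2% and 12.8% of all genes.

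Of 8 tested collagen receptors, 1 rose over both days (against 8.89% of all genes). This was Ddr1, a receptor tyrosine kinase of epithelial cells that binds collagen, with 3.62, 4.13 and 3.65 in day 2 mutants, against -0.13, -0.41 and -0.54 in day 2 controls, and 2.98, 2.61 and 2.95 in day 0 mutants, against 0.90 and 0.85 in day 0 controls. No mutant came near a control of its day, and Ddr1 rose by 3.07 ± 0.14 (SE, adjusted p = 4.71e-06). Of 16 tested genes of collagen breakdown, 2 rose (against 8.89% of all genes), the membrane-type protease gene Mmp15 (1.37 ± 0.20 SE, adjusted p = 0.00192) and the collagen uptake receptor gene Mrc2 (0.90 ± 0.24 SE, adjusted p = 0.0338), and the gelatinase gene Mmp2 did not pass (0.47, adjusted p = 0.337). Leaving out mutant day 0 replicate 3, 1 of the 8 receptors rose and 1 fell, and 2 of these 16 rose and 3 fell, against 13.2% and 12.8% of all genes. Of 20 tested partners of fibrils, 2 rose over both days (against 8.89% of all genes), the collagen-binding Sparc (0.73 ± 0.16 SE, adjusted p = 0.0155) and the small proteoglycan gene Bgn (0.60 ± 0.16 SE, adjusted p = 0.0345), and the list's median was -0.11. At day 2, 7 of the 20 rose, with a median of 0.18, against 9.77% of all genes, and without mutant day 0 replicate 3 the list had 3 higher and 4 lower over both days.

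Markers of the cells that could hold these collagens moved as follows, and their part in the collagen results was not tested. Over both days 8.89% of all genes rose and 7.06% fell, and 9.77% rose and 6.66% fell at day 2. The stellate cell and endothelial counts over both days lie near these shares. The 6 bile duct markers (Sox9, Krt19, Krt7, Epcam, Spp1 and Cldn7) all rose over both days, with a median of 3.22, and averaged 2.86 to 3.04 in day 2 mutants, -0.95 to -0.66 in day 2 controls, 2.07 to 2.55 in day 0 mutants and 0.21 to 0.50 in day 0 controls. Of 12 markers of stellate cells and fibroblasts, 1 rose over both days (Ngfr) and 3 rose at day 2 (Ngfr, Des and Lum), with a day 2 median of 0.29. Their mean level was -0.0033 to 0.60 in day 2 mutants, -0.46 to 0.06 in day 2 controls, 0.06 to 0.52 in day 0 mutants and -0.10 to 0.04 in day 0 controls. Of 6 markers of portal fibroblasts, 1 rose (Entpd2), and their mean was -1.47 to -1.05 in day 2 mutants, -2.20 to -1.71 in day 2 controls, -1.17 to -0.64 in day 0 mutants and -1.28 to -1.08 in day 0 controls. Smooth muscle markers had 0 of 4 called over both days, with 0 at an unadjusted p under 0.05. At day 2, 1 of the 4 was lower in mutants, and 2 of the 4 had an unadjusted p under 0.05. Of all 15734 genes, 4836 had an unadjusted p under 0.05 at day 2 and 4723 over both days. Endothelial markers had 1 higher and 1 lower of 10 over both days. Mesothelial markers had 0 of 4 called with limma over both days or on either day, and 0 at an unadjusted p under 0.05. Their median difference was -0.91 at day 0, with all 4 negative, and 0.66 at day 2, with all 4 positive. In controls, 2 of these 4 fell between the days (against 5.78% of all genes). Of 5 hepatocyte markers, 2 fell over both days. With mutant day 0 replicate 3 left out, 4 of the 5 hepatocyte markers fell over both days, 1 endothelial marker rose and 3 fell, and 1 smooth muscle marker rose. In that setting 13.2% of all genes rose and 12.8% fell. Mutant day 0 replicate 3, which was high for many collagens, also had the highest mean of the stellate and portal fibroblast markers in its group, at 0.52 and -0.64. The same held for the cartilage and bone markers Acan and Comp, at -1.55 against -2.88 and -2.34 in replicates 1 and 2. It held as well for the skin and muscle markers Krt14, Krt5 and Actn3, at -4.55 against -4.85 and -4.69. This array had the lowest mean of its group for smooth muscle, endothelial and mesothelial markers, at 0.04, 0.26 and -1.36.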

How the data were processed

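The authors deposited, for each array, spot intensities read with version 9.5.3.1 of Agilent's scanner software on array design 014868, per the file headers. The processed signal among them is a background-subtracted intensity not scaled between arrays. Per the labels' protocols, liver RNA was amplified and labelled with Cy3 alone. Log2 values that the authors made with RMA, per the submitters' processing notes, were deposited as well. Each of its columns correlated with its own array at 0.9801 to 0.9864 and with any other at 0.9771 or less, and column medians ran from 7.608 to 7.637.

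Here, log2 of the processed signal minus each array's 75th percentile was used, without control and outlier spots. Probes well above background on all arrays of some group were kept (27146 of 41174). RefSeq gave symbols by accession to 23477 probes, by symbol to 6678 and by synonym to 2891, while 1414 kept the file's name and 6714 had none. Each gene was read from its brightest kept probe with a value on all 11 arrays, where it had one.

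Genes were tested with limma 3.58.1 (R 4.3.3), with 1 coefficient per group, 7 residual and 2.40 prior degrees of freedom, and Benjamini-Hochberg adjustment over 15734 genes at 0.05. Where no array of a group was above background, the group was given at least the level of the dimmest probe above background on each array, and a fold is given at that level. Some probes were brighter than that level and still not marked above background, so such a fold is not a strict lower limit. Tested on simulated data for 15584 genes, the fit recovered 54 of 100 changes of 1 log2 unit and 91 of 100 of 2 units over both days and called 6 unchanged genes. The members, classes, lists and tests were chosen with earlier results of these data known. Every member was named, and array values were given for those past the threshold and for Col1a1, Col1a2, Col3a1, Col4a1, Col4a2, Col15a1 and Col18a1. From each other list up to 5 genes past the threshold over both days were named, with P4ha1, Plod2, Lox, Serpinh1, Mmp2, Ddr1, Lama1 and Nid1 besides.

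Replicate numbers are slide numbers. Deviations from the group mean correlated at 0.2247 to 0.2828 between day 2 mutants and day 2 controls of the same number. Between the others they correlated at -0.2166 to -0.0505, but centring on the group mean pushes these below 0 once the same-number pairs are positive. The numbers were taken to pair these arrays, and a fit with slide as a block was run beside the main one. Other alternatives were normexp and quantile treatment, the authors' table, other filters on dim probes, pup sex as a covariate, other ways to combine probes, and leaving out each array. The values of 1 gene among the partners of collagen are not reported here.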

Additional observations from a re-analysis of the deposited data

Results flagged for a closer look

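The collagen receptor gene Ddr1 was higher in mutants by 4.16 at day 2 and by 1.97 at day 0 (log2 units), and the difference between the days, 2.19 ± 0.28 (SE), passed the test of that difference itself (limma, adjusted p = 0.0216). This test rests on 2 day 0 controls, and pup sex coincided with genotype at day 0. Of all genes 0.273% passed it, and 0.0318% with pup sex as a covariate. Whether Ddr1 passed in that setting is not given here.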

How the results depend on the processing

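The 7 collagens called over both days became 4 when only probes above background on every array were kept and 4 with pup sex as a covariate. The 1 called at day 0 became 0 with pup sex. The 3 called between the days in controls became 1 with no filter on dim probes and 0 with pup sex, and the 2 called in mutants became 4 under normexp treatment, 4 with slide as a block, 1 with pup sex and 1 with the mean of a gene's probes. Leaving out each array in turn gave 3 to 8 calls over both days, 0 to 2 at day 0, 4 to 16 at day 2, 0 to 4 for the difference between the days, 0 to 15 in controls between the days and 1 to 8 in mutants. With the replicate block (slide), 8 of the 9 day 2 calls remained, Col9a2 being lost, and the 7 calls over both days remained. In mutants between the days the block added Col4a3 and Col4a5. For the 22 calls of single collagens, 434 checks were run, of which 357 kept direction and call, 76 kept direction alone and 1 turned round. That one was Col4a6 between the days in controls, at 2.95 (adjusted p = 0.238) when only probes above background on every array were kept, where another probe stands for the gene. The causes were not tested. Dim probes such as those of Col9a1, Col4a5 and Col23a1 limit what their sizes can show.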

Other observations

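Among day 2 mutants, replicate 1 was the highest of the 3 for 24 of 37 collagens (27.4% of all genes) and replicate 2 the lowest for 25 of 37 (26.8% of all genes). For type I and type III chains this order held in each of Col1a1, Col1a2 and Col3a1. Replicate 1 was the only male of the 3 by the inferred sex, and its 75th percentile, 1301.55, was the highest of all arrays. The part of sex and of signal strength in this order was not tested.

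Different probes of 1 gene did not always point the same way at day 2. For Col11a2 the probe used differed between mutants and controls by 0.25 and another probe by -1.49 (limma, adjusted p over probes = 0.502 and 0.231), for Col12a1 by 0.14 and -0.98 (0.931 and 0.457), for Col22a1 by 0.30 and -0.23 (0.625 and 0.747), and for Col4a4, a basement membrane chain, by -0.29 and 0.52 (0.561 and 0.614). None of these differences passed.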
